A study of Mus musculus with 22 samples.

Results

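The genes described here are 44 factors of 18S rRNA processing and assembly of the small (40S) ribosomal subunit, taken by symbol from a fixed list and found among the 24819 genes of both deposited tables. RNA was sequenced from 22 libraries of E14 cells, an established line of mouse embryonic stem cells grown on gelatin with leukemia inhibitory factor, 3 days after transfection of small interfering RNAs (siRNAs). Each library received siRNA against Rpl14, against Rpl11, against Dux, against Rpl14 and Rpl11, against Rpl14 and Dux, or siNT alone, where a single gene siRNA was given together with siNT. The groups are called siRpl14, siRpl11, siRpl14+siRpl11, siDux, siRpl14+siDux and siNT, and siNT is treated as the control, although the labels do not spell out NT. Set 1 holds 8 libraries, with 2 each of siRpl14, siRpl11, siRpl14+siRpl11 and siNT. Set 2 holds 4 libraries, with 1 each of siRpl14, siDux, siRpl14+siDux and siNT. Set 3 holds 10 libraries, with 2 each of siRpl14, siDux, siRpl14+siDux and siNT and 1 each of siRpl11 and siRpl14+siRpl11. Sets 1 and 2 share a table and are told apart by the style of their titles, and set 3 is a table of its own.

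The small-subunit processome is the large particle that forms on the nascent pre-rRNA in the nucleolus, folds its 5′ part and cleaves out the precursor of 18S rRNA. UTP-A and UTP-B are preassembled protein complexes that bind first, the U3 snoRNP and the Mpp10 complex follow, and GTPases, helicases and enzymes join as the particle matures. The pre-40S particle is then exported, and its last cleavage to mature 18S rRNA takes place in the cytoplasm. Rpl14 and Rpl11, the genes that were depleted, encode proteins of the other, large (60S) subunit, and Dux encodes a transcription factor of the early embryo. Embryonic stem cells grow fast and make many ribosomes.

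The values are FPKM, which scale fragments by transcript length and library size; read counts were not used here, so the absolute depth is unknown. In set 1, Rpl14 stood at 60.2% and 27.1% of the siNT mean with siRpl14 and at 15.6% and 35.3% with siRpl14+siRpl11, and Rpl11 at 34.9% and 15.2% with siRpl11 and at 13.2% and 33.4% with siRpl14+siRpl11. Rpl14 stood at 34.6% of siNT with siRpl14 in set 2 and at 26.8% and 24.6% with siRpl14 in set 3. Dux was below 2 FPKM in every library of sets 1 and 2 and was listed at 0 in 9 of the 10 libraries of set 3, so its depletion could not be measured there. Genes listed at 0 made up 30.8 to 32.1% of all genes in set 1, 30.1 to 31.3% in set 2 and 50.5 to 56.2% in set 3, where low values are resolved less finely. All 10 embryonic stem cell markers were above 1 FPKM in every library. Of 10 fibroblast markers, 7 or 8 were under 1 FPKM in each library of sets 1 and 2, and 6 to 9 in each library of set 3. Thy1, Pdgfrb and Fbln1 reached 1 FPKM in 2 or more libraries of set 1. Whether the libraries of a group came from separate cultures is not stated, so the p-values reflect the spread among these libraries alone, and that spread may be technical.

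Promoter sequences are shown first, so that the promoters of members that rose in set 1 can be compared with those of other genes. The RefSeq table of promoters (build GRCm38.p6, not the mm9 build of the deposited values) holds 38 of the 44 members, and Wdr36, Tbl3, Utp6, Rrp12, Dcaf13 and Nol6 are not among them. The 250 bases before each start were searched on both strands for CCGGAAG (a core bound by ETS factors), CACGTG (the E-box bound by Myc with Max) and TATAAA, which do not overlap each other. A gene was counted where any of its listed starts had the motif, so genes with several starts had more chances to match. CCGGAAG was in 14 of 38 members (36.8%), in 16.3% of the 9517 genes tested in set 1 that have an entry and in 7.83% of all 27025 genes with an entry. CACGTG was in 6 of 38 members (15.8%), in 10.3% of the tested genes and in 6.86% of all genes with an entry. TATAAA was in 1 of 38 members, Nol11 (2.63%), in 7.41% of the tested genes and in 14.3% of all genes with an entry. The stretches below hold CCGGAAG in 4 members whose values are given in full in the next paragraphs, then CACGTG in 3 members that rose with siRpl11, and last both motifs in Wdr46. Each reads 5′ to 3′ on the strand of the gene, ends before the annotated start, and has the motif in capitals.
Heatr1, chr13:12395319-12395374, plus strand: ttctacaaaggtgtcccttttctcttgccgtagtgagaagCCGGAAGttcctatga
Pwp2, chr10:78185150-78185210, minus strand: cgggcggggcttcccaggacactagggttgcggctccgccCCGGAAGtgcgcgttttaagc
Dhx37, chr5:125434066-125434152, minus strand: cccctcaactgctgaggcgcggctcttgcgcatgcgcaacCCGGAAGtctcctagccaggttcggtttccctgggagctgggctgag
Emg1, chr6:124712179-124712262, minus strand: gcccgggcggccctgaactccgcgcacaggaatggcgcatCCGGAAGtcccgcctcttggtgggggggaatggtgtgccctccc
Nol11, chr11:107189382-107189464, minus strand: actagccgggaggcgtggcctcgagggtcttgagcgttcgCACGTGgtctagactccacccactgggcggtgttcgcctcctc
Utp18, chr11:93885767-93885826, minus strand: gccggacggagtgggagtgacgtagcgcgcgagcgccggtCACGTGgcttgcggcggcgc
Imp4, chr1:34439668-34439753, plus strand: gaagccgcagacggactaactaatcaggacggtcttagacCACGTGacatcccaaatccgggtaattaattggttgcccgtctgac
Wdr46, CCGGAAG on both strands, chr17:33940625-33940711, plus strand: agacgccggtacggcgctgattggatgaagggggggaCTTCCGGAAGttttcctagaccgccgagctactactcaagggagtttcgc
Wdr46, CACGTG, chr17:33940671-33940722, plus strand: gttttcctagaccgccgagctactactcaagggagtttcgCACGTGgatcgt

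CCGGAAG begins at position -16 from the start in Heatr1, at -21 in Pwp2, at -64 in Dhx37 and at -44 in the Emg1 stretch shown. In Wdr46 the core on the plus strand and its reverse complement overlap in 1 palindrome, and the E-box lies nearer the start, at -12. These matches describe the letters in these windows and show no bound factor. Members with and without a motif are set beside each other after the values.

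In set 1 most 40S assembly genes stood higher with each ribosomal protein siRNA than with siNT. With siRpl14, 26 of the 44 members rose and 0 fell past the adjusted threshold, against 18.1% of the 12129 genes tested that rose and 13.4% that fell. With siRpl11, 32 members rose and 2 fell, Tbl3 and Imp3, against 16% and 28.4% of the genes tested. With siRpl14+siRpl11, 28 members rose and 1 fell, Imp3, against 16.6% and 25% of the genes tested. These shares also apply to the counts by role, motif and list below. The members' median log2 fold change was 0.37 with siRpl14, 0.55 with siRpl11 and 0.47 with siRpl14+siRpl11, while the median over all genes tested was 0.03 with siRpl14, -0.11 with siRpl11 and -0.07 with siRpl14+siRpl11. All 44 members passed the filter on low values in set 1. Their median SE was 0.11, against 0.15 over all genes tested, so smaller changes could pass in the members than in a typical gene.

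Fold changes are log2 differences of FPKM + 1, tested with limma across all genes and adjusted by the Benjamini-Hochberg method at 0.05. Where 3 values follow a gene or a list in set 1, they belong to siRpl14, siRpl11 and siRpl14+siRpl11, each against siNT. The 3 contrasts share the same 2 siNT libraries, so their likeness is not 3 independent results. The libraries of siRpl14 lay entirely above those of siNT in 38 members and entirely below in 2, against 38.2% and 32.9% of the genes tested. Those of siRpl11 lay entirely above in 39 and entirely below in 3, against 31.2% and 46.2%. Leaving out single libraries moved the counts of called members in all 3 contrasts. The largest losses came without siNT replicate 1 or siRpl14 replicate 2 with siRpl14. With siRpl11 they came without siNT replicate 1 or siRpl11 replicate 2, and with siRpl14+siRpl11 without siNT replicate 1 or siRpl14+siRpl11 replicate 1. Such a fit leaves 1 library in a group and weakens the test for every gene, so these losses are not shown to be particular to the members. Called in every fit that left out 1 library were Pwp2 and Rrp12 with siRpl14, 18 members with siRpl11 and 10 with siRpl14+siRpl11. With siRpl11, a median-ratio rescaling put the median of all genes at 0.04 in place of -0.11 and called 25% of all genes higher and 19.9% lower. Under it the members' median was 0.71, and 38 members rose and 0 fell. With siRpl14+siRpl11 it called 22.9% of all genes higher and 19.5% lower, and 36 members rose and 0 fell. Under all 6 other pseudocounts, filters, scalings and blocks, calls held for 18 of 26 members with siRpl14, 28 of 34 with siRpl11 and 26 of 29 with siRpl14+siRpl11. Calls that did not hold in all 6 include Wdr36, Nol10, Dcaf13 and Aatf with siRpl14 and Wdr36 and Pno1 with siRpl11.

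Cell type markers moved beside these changes. The 10 embryonic stem cell markers summed to 5042 and 5514 FPKM with siRpl14, 6150 and 6681 FPKM with siRpl11 and 5572 and 5596 FPKM with siRpl14+siRpl11, against 7162 and 7965 FPKM with siNT. They went both ways: 2, 3 and 3 of them rose and 3, 5 and 6 fell. Of all genes tested, 18.1%, 16% and 16.6% rose and 13.4%, 28.4% and 25% fell. Sall4 and Sox2 were raised and Klf4, Tfcp2l1 and Dppa5a lowered in all 3 contrasts. The 10 fibroblast markers, of which 7 or 8 were under 1 FPKM in each library, summed to 22.9 to 32.3 FPKM with the ribosomal protein siRNAs and 54.4 to 57.7 FPKM with siNT. The 10 trophectoderm markers summed to 57.3 and 85.0 FPKM with siRpl14, 38.7 and 40.7 FPKM with siRpl11 and 36.7 and 37.0 FPKM with siRpl14+siRpl11, against 44.3 and 50.5 FPKM with siNT. The 10 primitive endoderm markers summed to 109 and 159 FPKM with siRpl14, against 93.0 and 101 FPKM with siNT. With siRpl11 they summed to 78.5 and 98.0 FPKM, and with siRpl14+siRpl11 to 93.7 and 75.7 FPKM. The part of the cell type markers in the members' changes was not tested. In bulk RNA fewer cells of a type and less RNA per cell cannot be told apart.

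**Figure D1:**
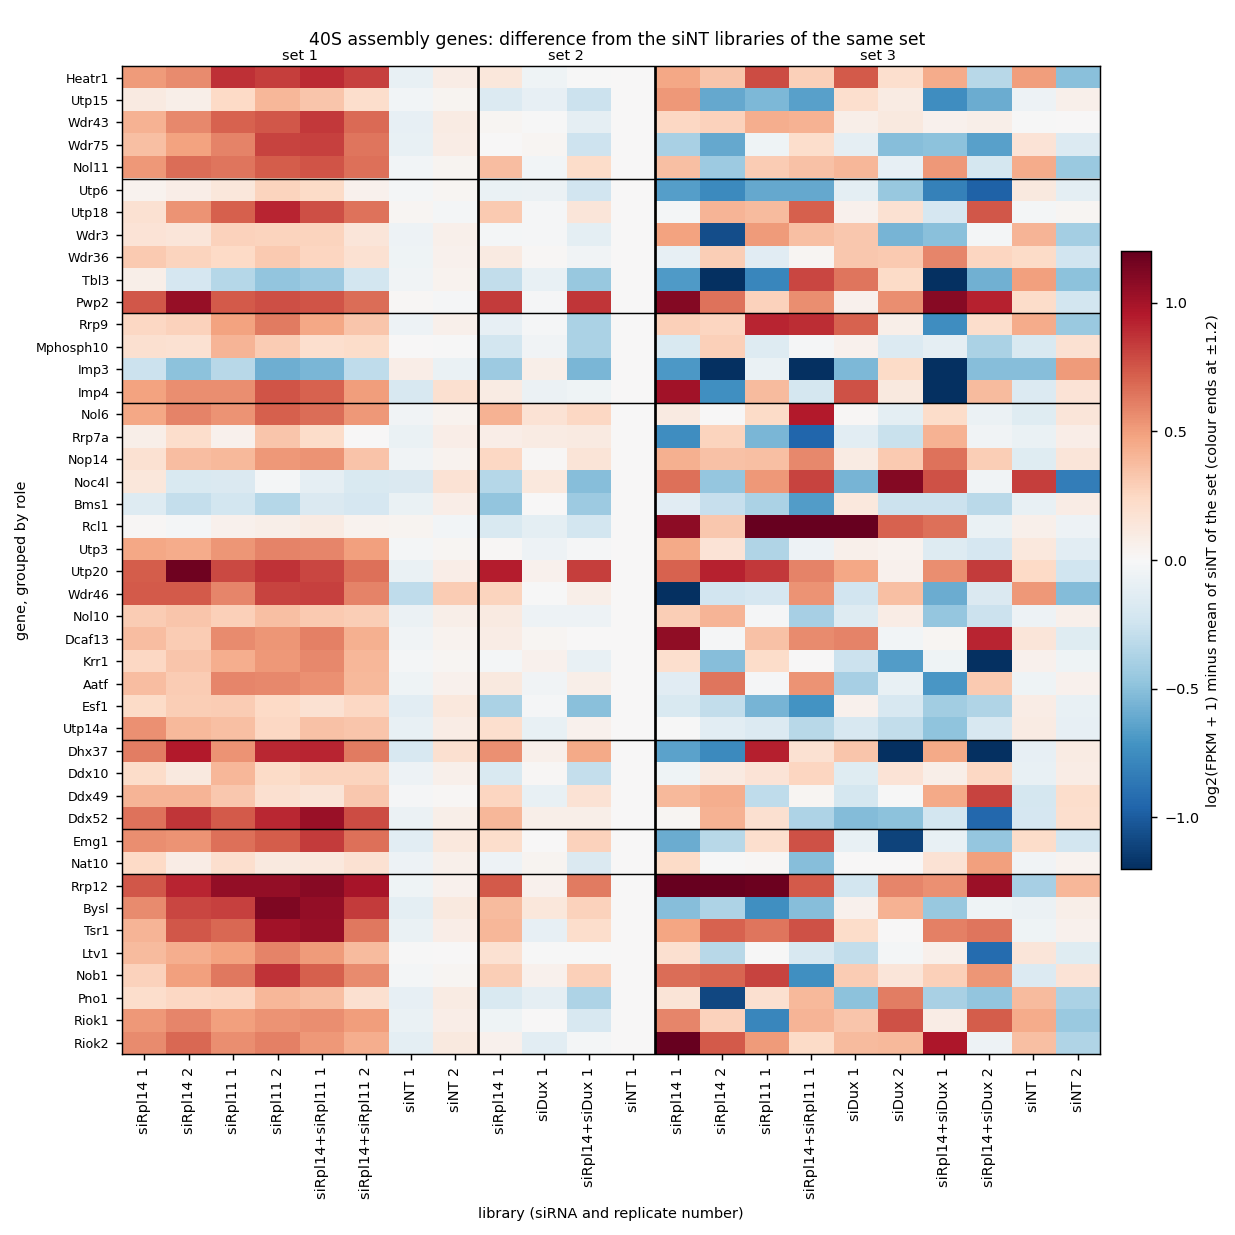
Each of the 44 genes (rows, grouped by role from UTP-A at the top to pre-40S factors at the bottom) in each of the 22 libraries (columns), as log2(FPKM + 1) minus the mean of the siNT libraries of its set. Red is above and blue below siNT; set 2 has 1 siNT library, which is therefore 0 throughout. Most rows are red in the 6 knockdown libraries of set 1, fewer are in set 2, and set 3 is mixed within groups.

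The UTP-A complex, which binds the nascent pre-rRNA first, had 4 of 5 members raised with siRpl14, 5 of 5 with siRpl11 and 4 of 5 with siRpl14+siRpl11. Heatr1, a large HEAT-repeat scaffold of UTP-A, stood at 74.3 and 77.4 FPKM with siRpl14, 95.6 and 92.9 FPKM with siRpl11 and 97.2 and 92.2 FPKM with siRpl14+siRpl11, against 48.5 and 55.3 FPKM with siNT. All 6 knockdown libraries lay above both siNT libraries, and those with siRpl11, alone or with siRpl14, lay above those with siRpl14 alone. The log2 fold change of Heatr1 was 0.54 ± 0.10 with siRpl14 (SE; limma, adjusted p = 0.00836), 0.85 ± 0.10 with siRpl11 (adjusted p = 0.00239) and 0.86 ± 0.10 with siRpl14+siRpl11 (adjusted p = 0.00266). Wdr43, the WD-repeat subunit known as Utp5 in yeast and the UTP-A member with the highest mean FPKM in set 1, stood at 91.2 and 102 FPKM with siRpl14, 112 and 115 FPKM with siRpl11 and 123 and 110 FPKM with siRpl14+siRpl11, against 63.3 and 72.8 FPKM with siNT. The 6 knockdown libraries were again all above siNT, by 0.50, 0.73 and 0.76 on the log2 scale, each ± 0.11. Nol11 (0.59, 0.68 and 0.71) and Wdr75 (0.42, 0.70 and 0.73) rose with all 3 siRNA combinations. Utp15 rose with siRpl11 (0.32 ± 0.10; limma, adjusted p = 0.0383), and its values with siRpl14 (0.09) and siRpl14+siRpl11 (0.27) did not pass.

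UTP-B, the complex that bridges the 5′ part of the pre-rRNA and U3, was uneven. With siRpl14 2 of 6 members rose, with siRpl11 3 rose and 1 fell, and with siRpl14+siRpl11 2 rose. Pwp2, a WD-repeat subunit known as Utp1 in yeast, stood at 51.6 and 64.0 FPKM with siRpl14, 51.2 and 52.8 FPKM with siRpl11 and 52.0 and 48.9 FPKM with siRpl14+siRpl11, against 30.7 and 30.1 FPKM with siNT. Every knockdown library was above siNT, and the highest was a siRpl14 library. The log2 fold changes of Pwp2 were 0.90 ± 0.12, 0.75 ± 0.12 and 0.71 ± 0.12 (limma, adjusted p = 0.00309, 0.00388 and 0.00515). Wdr36, another WD-repeat subunit and the UTP-B member with the highest mean FPKM, stood at 68.2 and 65.9 FPKM with siRpl14, 64.5 and 68.2 FPKM with siRpl11 and 65.3 and 62.1 FPKM with siRpl14+siRpl11, against 52.4 and 56.6 FPKM with siNT. It rose with siRpl14 (0.29 ± 0.09; limma, adjusted p = 0.0468) and with siRpl11 (0.28 ± 0.09; adjusted p = 0.0429), and was 0.22 higher with siRpl14+siRpl11 without passing. Of 6 other settings of the fit, the call with siRpl14 held in 2 and that with siRpl11 in 3.

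Tbl3, the UTP-B subunit known as Utp13 in yeast, differed from the other subunits in its direction. It stood at 47.4 and 39.1 FPKM with siRpl14, 35.4 and 32.2 FPKM with siRpl11 and 33.0 and 38.6 FPKM with siRpl14+siRpl11, against 43.7 and 46.4 FPKM with siNT. The siRpl14 libraries overlapped siNT, and the 4 libraries with siRpl11 were below it. Tbl3 fell by 0.40 ± 0.13 with siRpl11 (limma, adjusted p = 0.0367), and its log2 difference with siRpl14+siRpl11 was -0.33 (adjusted p = 0.0745). Under the median-ratio rescaling it was not called with siRpl11. Utp18 rose with siRpl11 (0.82) and siRpl14+siRpl11 (0.71), and was at 0.36 with siRpl14 without passing. Wdr3 and Utp6 passed in none of the 3 contrasts (0.06 to 0.27).

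The U3 and Mpp10 module, which ties the U3 snoRNA to the pre-rRNA, held both directions. Imp4, an RNA-binding protein of the Mpp10 complex, rose in all 3 contrasts (0.52, 0.65 and 0.60). Imp3, its partner in the same complex, stood at 91.1 and 77.4 FPKM with siRpl14, 86.7 and 72.7 FPKM with siRpl11 and 74.5 and 88.2 FPKM with siRpl14+siRpl11, against 116 and 103 FPKM with siNT. All 6 knockdown libraries lay below both siNT libraries. Imp3 fell by 0.46 ± 0.14 with siRpl11 (limma, adjusted p = 0.0317) and by 0.43 ± 0.14 with siRpl14+siRpl11 (adjusted p = 0.0416), and its difference with siRpl14 was -0.38 ± 0.14 (adjusted p = 0.0731). It was not called under the median-ratio rescaling in either contrast. Rrp9, a protein of the U3 snoRNP, rose with siRpl11 (0.55) and siRpl14+siRpl11 (0.40). Mphosph10, the scaffold of the Mpp10 complex, rose with siRpl11 (0.35).

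Of the 15 scaffold and later-joining factors, 8 rose with siRpl14, 9 with siRpl11 and 10 with siRpl14+siRpl11, and 0 fell. Utp20, a very large HEAT-repeat protein that wraps the outside of the particle, stood at 66.7 and 91.2 FPKM with siRpl14, 70.0 and 73.6 FPKM with siRpl11 and 70.6 and 63.7 FPKM with siRpl14+siRpl11, against 37.8 and 42.2 FPKM with siNT. Every knockdown library exceeded siNT, with the widest spread between the 2 siRpl14 libraries. Utp20 changed by 0.95 ± 0.15, 0.83 ± 0.15 and 0.73 ± 0.15 (limma, adjusted p = 0.00531, 0.00566 and 0.00916). Utp3, known as Sas10 in yeast and the factor of this group with the highest mean FPKM, stood at 82.7 and 81.8 FPKM with siRpl14, 86.4 and 90.6 FPKM with siRpl11 and 89.9 and 84.3 FPKM with siRpl14+siRpl11, against 58.5 and 60.8 FPKM with siNT. The groups did not overlap, and Utp3 rose by 0.46, 0.56 and 0.54, each ± 0.09. Also raised in all 3 contrasts were Wdr46 (0.73, 0.69 and 0.71), Nol6 (0.53, 0.63 and 0.59), Dcaf13 (0.33, 0.55 and 0.52), Aatf (0.34, 0.58 and 0.47) and Nol10 (0.32, 0.32 and 0.30). Krr1 rose with siRpl11 (0.48) and siRpl14+siRpl11 (0.49), and Utp14a, the activator of Dhx37 in yeast, with siRpl14 (0.47) and siRpl14+siRpl11 (0.34). Some factors passed in none of the 3 contrasts, among them Esf1 (0.26, 0.27 and 0.22) and Rrp7a (0.14, 0.19 and 0.11). Bms1, the GTPase of the processome, was at -0.22, -0.28 and -0.19, and Rcl1, its binding partner, at -0.01, 0.06 and 0.07, with 0 calls for either. Noc4l (-0.02, -0.10 and -0.14) did not pass either, although its binding partner Nop14 rose with siRpl11 (0.45) and siRpl14+siRpl11 (0.44).

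**Figure D2:**
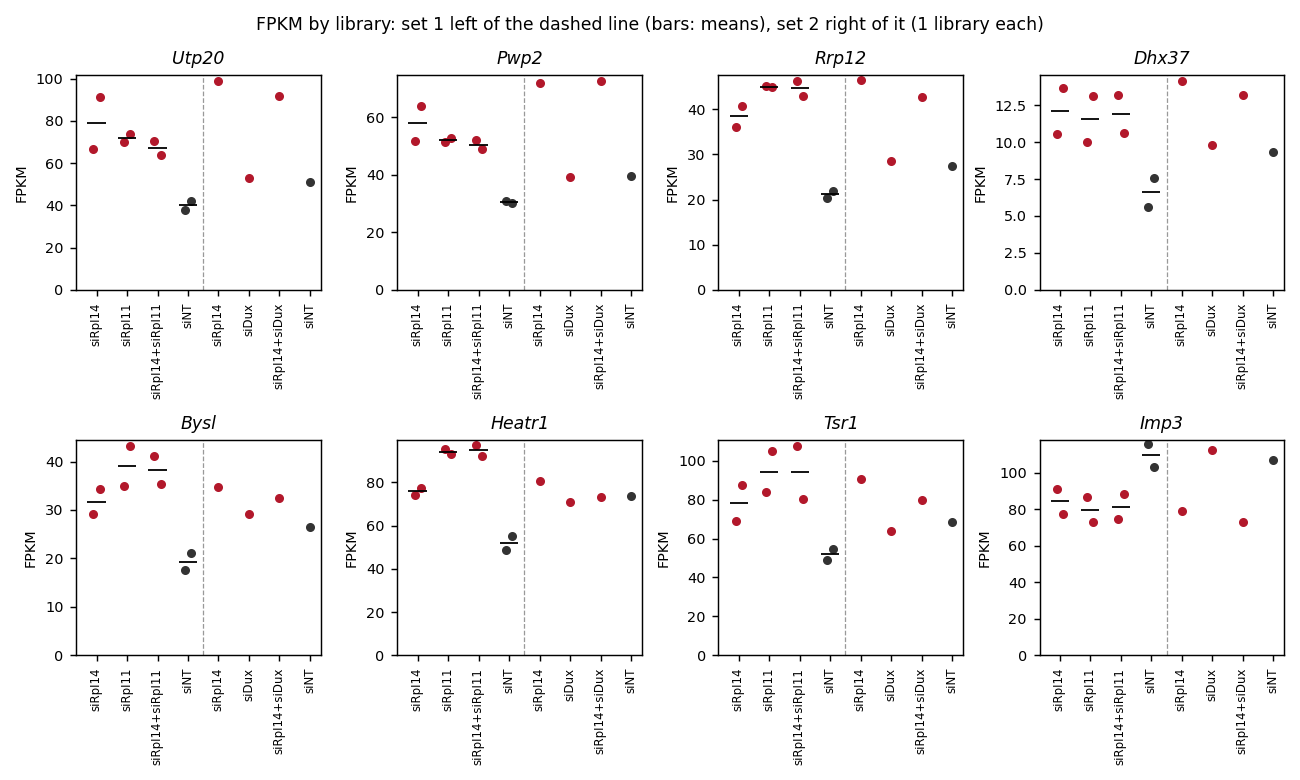
FPKM of 8 of the genes in each library of set 1 (left of the dashed line, bars are means of 2 libraries) and set 2 (right, 1 library per group). Points in red are knockdown libraries and points in black siNT. Imp3 is lower in every library with siRpl14 or siRpl11, and the other 7 genes are higher in every such library of set 1 than in its siNT libraries.

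Among the RNA helicases, 3 of 4 rose with siRpl14, 3 with siRpl11 and 2 with siRpl14+siRpl11. Dhx37, the helicase that releases U3 from the particle, stood at 10.6 and 13.6 FPKM with siRpl14, 9.97 and 13.1 FPKM with siRpl11 and 13.2 and 10.6 FPKM with siRpl14+siRpl11, against 5.61 and 7.59 FPKM with siNT. The knockdown libraries were all above siNT, but the replicates spread widely, and the fold changes were 0.79, 0.72 and 0.77, each ± 0.20 (limma, adjusted p = 0.0228, 0.0220 and 0.0190). Ddx52, known as Rok1 in yeast, stood at 21.0 and 24.5 FPKM with siRpl14, 22.4 and 25.3 FPKM with siRpl11 and 27.8 and 23.1 FPKM with siRpl14+siRpl11, against 12.3 and 13.7 FPKM with siNT. It rose in all 3 contrasts, by 0.75, 0.82 and 0.91, each ± 0.14. Ddx10, the helicase with the highest mean FPKM and known as Dbp4 in yeast, stood at 42.7 and 39.8 FPKM with siRpl14, 48.5 and 42.9 FPKM with siRpl11 and 44.1 and 44.1 FPKM with siRpl14+siRpl11, against 34.9 and 38.1 FPKM with siNT. The groups did not overlap, yet of the 3 contrasts Ddx10 passed in that of siRpl11 (0.31 ± 0.11; limma, adjusted p = 0.0422) and not in the other two (0.17 and 0.27). Ddx49 rose with siRpl14 (0.41), with 0.26 and 0.24 in the other contrasts.

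Of the 2 enzymes that modify 18S rRNA, Emg1 rose and Nat10 did not pass. Emg1, a pseudouridine methyltransferase and the most abundant member in siNT, stood at 174 and 172 FPKM with siRpl14, 186 and 196 FPKM with siRpl11 and 212 and 187 FPKM with siRpl14+siRpl11, against 108 and 128 FPKM with siNT. All 6 knockdown libraries were above siNT, and the fold changes were 0.55, 0.69 and 0.75, each ± 0.11. Nat10, the cytidine acetyltransferase, was at 0.17, 0.16 and 0.16, each ± 0.10.

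The pre-40S maturation and export factors rose in most of their members: 7 of 8 rose with siRpl14, 8 of 8 with siRpl11 and 7 of 8 with siRpl14+siRpl11. Rrp12, a HEAT-repeat protein needed in yeast to export both subunits, stood at 36.1 and 40.8 FPKM with siRpl14, 45.1 and 44.9 FPKM with siRpl11 and 46.3 and 42.9 FPKM with siRpl14+siRpl11, against 20.3 and 22.0 FPKM with siNT. The knockdown and siNT libraries were far apart, and Rrp12 rose by 0.83 ± 0.11, 1.06 ± 0.11 and 1.04 ± 0.11 (limma, adjusted p = 0.00264, 0.00200 and 0.00242). Bysl, known as Enp1 in yeast, stood at 29.1 and 34.3 FPKM with siRpl14, 34.9 and 43.2 FPKM with siRpl11 and 41.1 and 35.3 FPKM with siRpl14+siRpl11, against 17.7 and 21.0 FPKM with siNT. It rose by 0.69, 0.97 and 0.95, each ± 0.15, with no overlap of knockdown and siNT libraries. Tsr1, a GTPase-like factor that blocks early joining of translation factors, stood at 69.1 and 87.3 FPKM with siRpl14, 83.8 and 105 FPKM with siRpl11 and 108 and 80.6 FPKM with siRpl14+siRpl11, against 49.0 and 54.6 FPKM with siNT. The spread within each knockdown group of Tsr1 was wide, and the rises were 0.58, 0.85 and 0.84, each ± 0.18 (limma, adjusted p = 0.0437, 0.00893 and 0.0105). Nob1, the endonuclease of the last cleavage of 18S rRNA, stood at 89.0 and 103 FPKM with siRpl14, 114 and 134 FPKM with siRpl11 and 121 and 109 FPKM with siRpl14+siRpl11, against 72.2 and 74.6 FPKM with siNT. It rose by 0.38, 0.75 and 0.64, each ± 0.12. Pno1, the binding partner of Nob1, rose with siRpl11 (0.33) and was 0.23 and 0.27 higher in the other contrasts without passing. The kinases Riok1 (0.55, 0.52 and 0.53) and Riok2 (0.63, 0.58 and 0.48) and the assembly factor Ltv1 (0.41, 0.54 and 0.44) rose in all 3 contrasts.

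**Figure D3:**
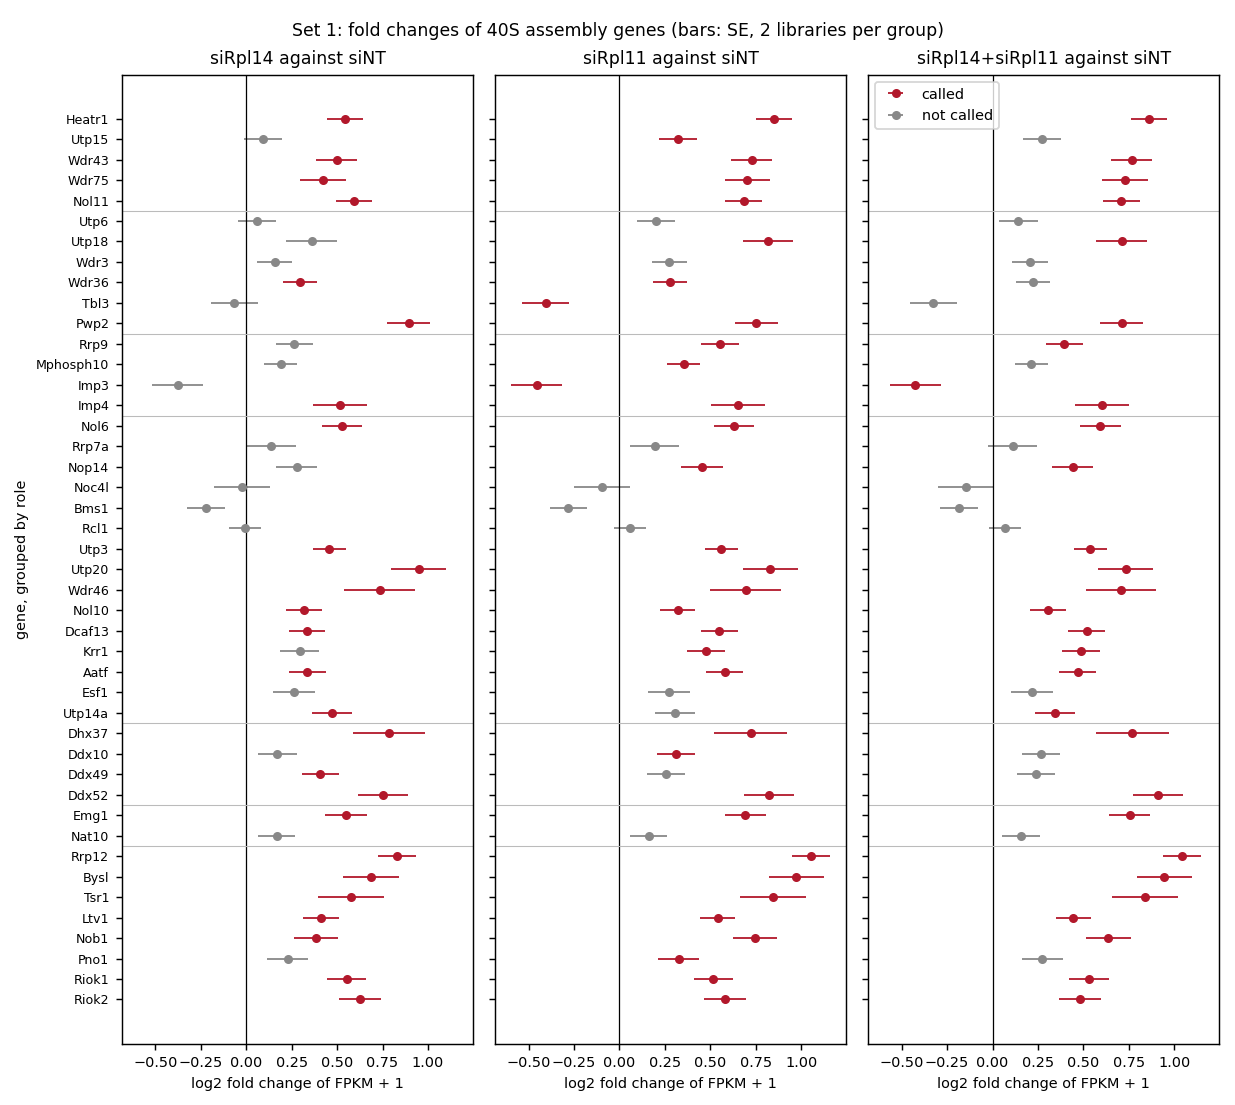
Log2 fold change of FPKM + 1 against siNT (x axis, bars are SE, 2 libraries per group) for each of the 44 genes in set 1, with siRpl14, siRpl11 and siRpl14+siRpl11 from left to right. Red points passed the adjusted threshold: 26, 34 and 29 genes. Imp3 is left of 0 in all 3 panels, as is Bms1, and Rrp12 is the furthest right in the middle and right panels.

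Of the 14 members with CCGGAAG, 10 rose with siRpl14, 12 with siRpl11 and 10 with siRpl14+siRpl11, with medians of 0.41, 0.57 and 0.50. Of the 24 members with a promoter entry but without it, 12, 16 and 15 rose, with medians of 0.34, 0.50 and 0.46. Of the 6 members with CACGTG, 4, 5 and 5 rose, with medians of 0.44, 0.67 and 0.65, and Rrp7a is the one that passed in none of the 3 contrasts. The 32 members without CACGTG had 18, 23 and 20 rises and medians of 0.39, 0.50 and 0.44. These are descriptions with no test.

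The siRNAs against the 2 ribosomal protein genes were then set against each other. In siRpl11 against siRpl14, 0 of the 44 members passed with limma, against 1.45% of all genes higher and 12% lower, and 6 members had an unadjusted p under 0.05, against 29.6% of all genes. These were Heatr1 (0.31), Utp18 (0.46), Rrp9 (0.29), Aatf (0.24) and Nob1 (0.37), which were higher with siRpl11, and Tbl3 (-0.34), which was lower. The members' median was 0.10 and that of all genes -0.12. Rescaled by median ratios, the median of all genes was 0.04 and 11 members rose, against 5.71% of all genes higher and 6.88% lower. After quantile normalization 1 member rose, with no share of all genes set beside it. Whether the members differ between the 2 siRNAs thus depends on the scaling.

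Adding the second siRNA to the first gave no called member. In siRpl14+siRpl11 against siRpl14, 0 members passed with limma, against 0.627% of all genes higher and 6.61% lower, and 4 members had an unadjusted p under 0.05 (22.7% of all genes): Heatr1 (0.32), Wdr43 (0.27), Wdr75 (0.31) and Utp18 (0.35). Under median ratios 1 member rose, with no share of all genes set beside it. In siRpl14+siRpl11 against siRpl11, 0 members passed (0% of all genes in either direction) and 0 had an unadjusted p under 0.05 (3.19% of all genes), with member values between -0.16 and 0.09. Not even Rpl14 was called, at 232 and 524 FPKM with siRpl14+siRpl11 and 1465 and 1447 FPKM with siRpl11. The lack of calls in this contrast therefore does not show that siRpl14 added nothing.

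The interaction asks whether siRpl11 added as much in cells with siRpl14 as in cells without it. It was below 0 for 40 of 44 members, with a median of -0.43 against -0.01 over all genes, so that the change with both siRNAs was smaller than the sum of the single changes. It passed for 4 members, all below 0, against 2.65% of all genes called lower: Utp20 (-1.05 ± 0.21), Pwp2 (-0.94 ± 0.17), Rrp12 (-0.84 ± 0.15) and Riok2 (-0.73 ± 0.16). All 4 stayed below 0 in the 8 fits that left out 1 library, but the calls did not hold in most of them. The siNT libraries of set 1 enter the interaction, so that lower siNT values alone would lower it. The siNT library of set 2 stood above both of them for 43 of 44 members, with a median difference of 0.34. The part of that difference in the interaction was not tested. The amount of siRNA against each gene in the combined transfection is not in the labels.

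Set 2 has 1 library per group, so no test was made and the differences have no replicate check. The siRpl14 library was above the siNT library for 28 of 44 members and below it for 16, while 49.1% of the 11948 genes considered were below. Utp20 stood at 98.8 FPKM with siRpl14 and 51.1 FPKM with siNT, Pwp2 at 71.7 FPKM with siRpl14 and 39.6 FPKM with siNT, and Rrp12 at 46.4 FPKM with siRpl14 and 27.5 FPKM with siNT. These 3 genes were the members at least 1.5-fold higher, against 14.9% of all genes, and 0 members were at least 1.5-fold lower, against 13.2%. Dhx37 came next, at 14.1 FPKM with siRpl14 and 9.34 FPKM with siNT. Imp3 (78.9 FPKM with siRpl14 and 107 FPKM with siNT) and Bms1 (47.4 FPKM with siRpl14 and 66.2 FPKM with siNT) were the lowest, at -0.43 and -0.47 on the log2 scale. The members' median difference was 0.09, smaller than the 0.37 of set 1.

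The siNT library of set 2 itself stood high in these genes. It was above both siNT libraries of set 1 for 43 of 44 members, against 35.1% of all genes, with a median difference of 0.34 for the members and -0.02 for all genes. Emg1 stood at 151 FPKM in siNT of set 2 and at 108 and 128 FPKM in siNT of set 1, and Heatr1 at 73.5 FPKM in siNT of set 2 and at 48.5 and 55.3 FPKM in siNT of set 1. The exception was Imp3, at 107 FPKM in set 2 and at 116 and 103 FPKM in set 1. The difference between the siNT libraries of the 2 sets was thus about as large as the members' median change with siRpl14 in set 1, and its source was not tested.

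**Figure D4:**
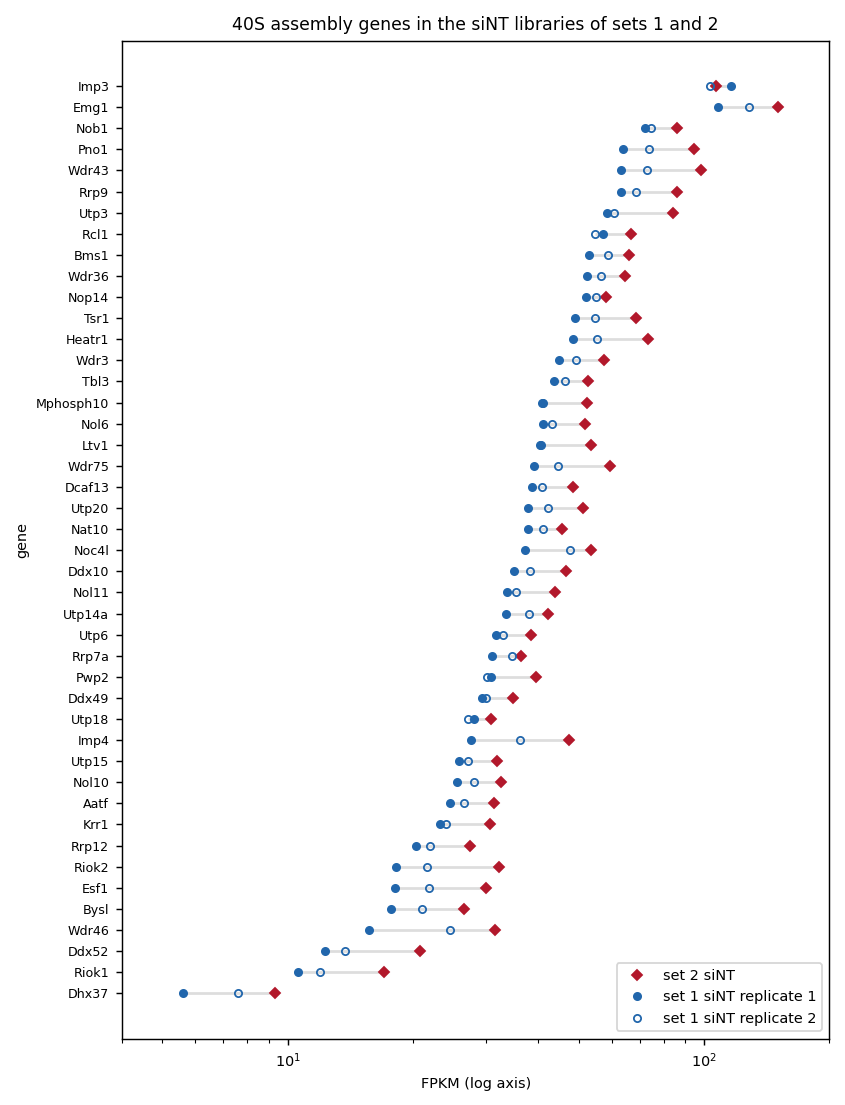
FPKM (log axis) of the 44 genes in the siNT library of set 2 (red diamonds) and in the 2 siNT libraries of set 1 (blue circles, filled for replicate 1), ordered by the level in siNT replicate 1 of set 1. The diamond is right of both circles for 43 genes, all but Imp3, and the levels run from Dhx37 at the bottom to Imp3 and Emg1 at the top.

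The siDux library of set 2 differed little from siNT in these genes. Member differences lay between -0.13 and 0.17 with a median of 0.00, and 0 were at least 1.5-fold higher (0.444% of all genes) or lower (0.544%). With siRpl14+siDux, Pwp2 (72.6 FPKM, against 39.6 FPKM with siNT), Utp20 (91.8 FPKM, against 51.1 FPKM with siNT) and Rrp12 (42.7 FPKM, against 27.5 FPKM with siNT) were at least 1.5-fold higher (16.1% of all genes) and 0 members at least 1.5-fold lower (13.1%). Set against siRpl14, the siRpl14+siDux library was below for 40 of 44 members, against 46.5% of all genes. The shift was small, with a median of -0.12 and 0 members at least 1.5-fold higher (1.31%) or lower (0.954%). Its largest members were Ddx52 (21.8 FPKM with siRpl14+siDux and 27.7 FPKM with siRpl14), Rrp9 (65.8 FPKM with siRpl14+siDux and 80.5 FPKM with siRpl14) and Wdr75 (49.9 FPKM with siRpl14+siDux and 59.8 FPKM with siRpl14). Whether a second pair of libraries would give the same shift cannot be said from set 2.

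Set 3 repeated siRpl14, siDux and siRpl14+siDux with 2 libraries each. With siRpl14, 0 of 44 members passed with limma, against 0.66% of the 13189 genes tested in either direction, and 8 members had an unadjusted p under 0.05, against 12.4% of all genes. These were Rrp12 (1.30 ± 0.45), Pwp2 (0.88 ± 0.35), Utp20 (0.81 ± 0.33), Nob1 (0.68 ± 0.29) and Tsr1 (0.59 ± 0.19), which were higher, and Imp3 (-1.77 ± 0.72), Utp6 (-0.71 ± 0.29) and Bysl (-0.44 ± 0.18), which were lower. The values of Bysl in set 3 are uncertain, for reasons given below. The median SE of a member was 0.36, against 0.11 in set 1, so changes of the size seen in set 1 are not resolved. Rrp12 stood at 16.7 and 18.3 FPKM with siRpl14 and 4.68 and 8.90 FPKM with siNT. Pwp2 stood at 22.6 and 16.3 FPKM with siRpl14 and 11.8 and 8.47 FPKM with siNT, and Utp20 at 19.6 and 22.9 FPKM with siRpl14 and 13.9 and 9.72 FPKM with siNT. In each of the 3 the groups did not overlap. Over all members, the siRpl14 libraries lay entirely above siNT in 12 and entirely below in 9, against 18.5% and 22.4% of all genes.

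Set 1, set 2 and set 3 each have their own siNT libraries, so their siRpl14 changes can be compared. Pwp2, Utp20 and Rrp12 were the members at least 1.5-fold higher in all 3 sets, with log2 differences in sets 1, 2 and 3 of 0.90, 0.84 and 0.88 for Pwp2, 0.95, 0.94 and 0.81 for Utp20, and 0.83, 0.74 and 1.30 for Rrp12. They were singled out after their values were seen. The shares of all genes that rose this much, or stayed on 1 side of 0, in all 3 sets were not counted. In set 2 alone, 14.9% of all genes were at least 1.5-fold higher, so these 3 members are not shown to stand out. Above 0 in all 3 sets were 19 of 44 members, and Imp3 (-0.38, -0.43 and -1.77), Tbl3 (-0.07, -0.30 and -1.59) and Bms1 (-0.22, -0.47 and -0.21) were below 0 in all 3. Across the 44 members, which share libraries and are not independent, the changes in sets 1 and 2 correlated with r = 0.865 (rho = 0.832), those in sets 1 and 3 with r = 0.472 (rho = 0.363) and those in sets 2 and 3 with r = 0.456 (rho = 0.361). Bysl and Ddx49, whose values in set 3 are uncertain, are included. Riok2 differed between sets, at 0.63, 0.05 and 1.16, as did Wdr46 (0.73, 0.26 and -0.87) and Dhx37 (0.79, 0.55 and -0.70), the last at 2.26 FPKM or less in the siRpl14 and siNT libraries of set 3.

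**Figure D5:**
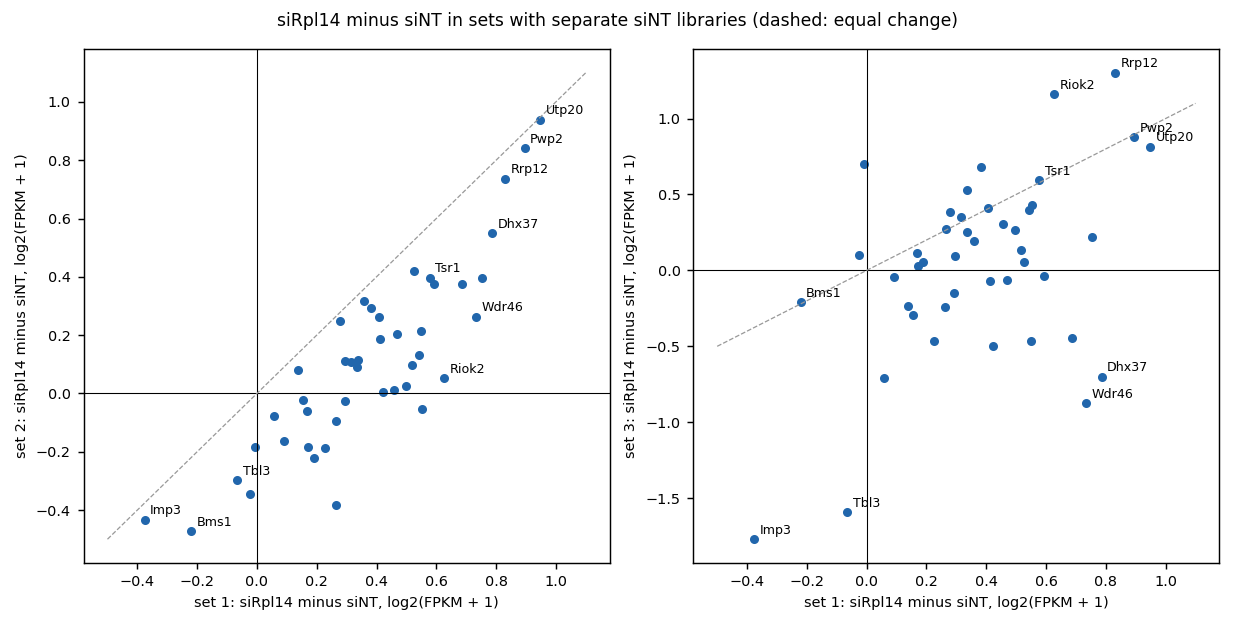
Difference of siRpl14 minus siNT in log2(FPKM + 1) for each of the 44 genes, in set 1 (x axes) against set 2 (left) and set 3 (right); the dashed line marks equal change and the scales of the y axes differ. Utp20, Pwp2 and Rrp12 are at the upper right and Imp3 at the lower left in both panels. Most points of set 2 lie below the dashed line, and the points of set 3 are widely scattered.

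With siDux in set 3, 0 members passed with limma (0.00758% of all genes) and 0 had an unadjusted p under 0.05 (5% of all genes). The siDux libraries lay above siNT in 6 members and below in 5, against 14.4% and 16% of all genes. With siRpl14+siDux, 0 members passed against siNT (1.02% of all genes), and 5 had an unadjusted p under 0.05 (14.8% of all genes), namely Pwp2 (1.00), Ddx49 (0.63), Tsr1 (0.63), Wdr75 (-0.57) and Utp6 (-0.89). The values of Ddx49 in set 3 are uncertain too. In siRpl14+siDux against siRpl14, 0 passed (0.0152% of all genes) and 1, Nol10 (-0.72), had an unadjusted p under 0.05 (6.78% of all genes). Its libraries lay above those of siRpl14 in 1 member and below in 10, against 16.6% and 15.4% of all genes. The members' median in that contrast was -0.06, with 24 of 44 below 0. The single siRpl11 library lay above both siNT libraries in 19 members and below both in 11, against 25.7% and 36.7% of all genes, with a median of 0.17 (-0.19 over all genes). The single siRpl14+siRpl11 library lay above both in 19 and below both in 14, against 26% and 37%, with a median of 0.20 (-0.19 over all genes).

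Levels in set 3 cannot be carried over from set 1. In the siNT libraries of set 1 members ranged from 118 ± 14.3 FPKM for Emg1 (SD, n = 2) and 109 ± 8.91 FPKM for Imp3 to 11.3 FPKM for Riok1 and 6.60 FPKM for Dhx37. The neighbours Emg1 and Imp3 do not differ beyond their spread. In set 3 the mean was lower than in set 1 for 35 of 44 members, and Tbl3 and Dhx37 were each listed at 0 in 2 libraries. Bysl and Ddx49 stood out as more than 5-fold higher in set 3. Bysl was at 648 to 1441 FPKM in set 3 and at 17.7 to 43.2 FPKM in sets 1 and 2, and Ddx49 at 252 to 546 FPKM in set 3 and at 29.3 to 41.8 FPKM in sets 1 and 2. Both overlap another protein-coding gene in RefSeq. Homer3, which overlaps Ddx49, was at 415 to 777 FPKM in set 3 and 7.21 to 15.4 FPKM in sets 1 and 2, and Ccnd3, which overlaps Bysl, was at 59.6 to 138 FPKM in set 3 and 102 to 222 FPKM in sets 1 and 2. In all, 9 members overlap a protein-coding gene (also Wdr3, Rrp7a, Krr1, Emg1, Nat10, Tsr1 and Riok1). The kit marks strand, but the strand setting of the counting is not given, so reads of overlapping genes may not be separated, and the values of Bysl and Ddx49 in set 3 are uncertain.

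Other genes of ribosome assembly rose in set 1 as well. Of 30 further 40S assembly factors, 13 rose with siRpl14, 19 with siRpl11 and 16 with siRpl14+siRpl11 and 0 fell, with medians of 0.29, 0.41 and 0.38. Nop58, a core protein of box C/D snoRNPs such as U3, stood at 178 and 230 FPKM with siRpl14, 266 and 323 FPKM with siRpl11 and 328 and 281 FPKM with siRpl14+siRpl11, against 98.2 and 113 FPKM with siNT. Utp4, a UTP-A subunit outside the list of 44, rose by 0.68, 1.01 and 1.01. Of 48 factors of 60S assembly, 17, 31 and 31 rose and 0, 0 and 1 fell, the last being Senp3, with medians of 0.26, 0.45 and 0.35. Of 14 genes of RNA polymerase I and its factors, 5, 8 and 8 rose and 0 fell, with medians of 0.35, 0.50 and 0.37.

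Myc proteins are known activators of ribosome assembly genes. Of 11 genes of Myc and its partners, 2, 2 and 2 rose and 0, 2 and 2 fell, with medians of 0.16, -0.04 and 0.19. Of all genes tested, 18.1%, 16% and 16.6% rose and 13.4%, 28.4% and 25% fell, so the number of rises was near that share. Mycn stood at 106 and 109 FPKM with siRpl14, 127 and 162 FPKM with siRpl11 and 156 and 122 FPKM with siRpl14+siRpl11, against 46.0 and 40.1 FPKM with siNT. It rose by 1.31, 1.72 and 1.66 (limma, adjusted p = 0.00216, 0.00198 and 0.00218). In set 2 Mycn stood at 106 FPKM with siRpl14 and 51.2 FPKM with siNT. In set 3 it stood at 25.4 and 28.5 FPKM with siRpl14 and 17.5 and 12.0 FPKM with siNT, and was not called (0.85; limma, adjusted p = 0.439). Mxd4 rose with siRpl14 (1.22), and Mga with siRpl11 (0.65) and siRpl14+siRpl11 (0.50). Mxd3 (-0.74 and -0.82) and Mxi1 (-0.92 and -0.80) fell with siRpl11 and siRpl14+siRpl11. Myc (0.77, 0.54 and 0.36) passed in none of the 3 contrasts. In set 2 Myc stood at 20.3 FPKM with siRpl14 and 27.5 FPKM with siNT. The part of these genes in the members' changes was not tested.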

How the data were processed

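RNA-seq values of 22 libraries were used as deposited by the authors, in 2 tables of FPKM. STAR, Cuffnorm and the build mm9 are named in the submitters' processing notes. The tool versions, annotation, strandedness and scaling method were not given in the sources used here. Tables may have been normalized separately, so tests stayed within a set.

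Sets 1 and 3 were each fitted with limma 3.58.1 (trended, robust moderation; R 4.3.3, statmod 1.5.0) on log2(FPKM + 1), which understates changes of low genes. The filter required 1 FPKM or more in 2 or more of the 8 libraries of a fit, and the Benjamini-Hochberg adjustment ran over all genes kept, at 0.05. The procedure was tested on simulated data. Set 2 was not tested, nor were the unreplicated siRpl11 and siRpl14+siRpl11 libraries in set 3; single libraries were compared by a 1.5-fold difference of FPKM + 1. FPKM carry no depth, so no counting error is given.

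Members, roles, lists and motifs were chosen with earlier results of these data known. Values in every library are given for the 4 largest rises and 4 largest falls of each contrast against siNT in set 1, among called members whose groups do not overlap, and for the member with the highest mean FPKM in each role; members called in set 3 would have been added. Alternatives were other pseudocounts, filters and scalings, a replicate block and leaving out each library. Replicate numbers are not stated to mark a shared culture or day.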

Additional observations from a re-analysis of the deposited data

Results flagged for a closer look

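The effect of siRpl11 in set 1 differed with and without siRpl14 in 4 of the 44 members, by limma's interaction term adjusted over all 12129 genes. All 4 were lower, against 322 of all genes called lower (2.65%) and 222 called higher. The difference of the effect with siRpl14 minus the effect without it was -1.05 for Utp20 (SE 0.21, adjusted p = 0.0400), -0.94 for Pwp2 (SE 0.17, adjusted p = 0.0313), -0.84 for Rrp12 and -0.73 for Riok2. Each of the 4 rose with siRpl14, with siRpl11 and with both, and stood no higher with both than with the higher of the single siRNAs. The sign held in all 8 fits that left out 1 library, with -0.82 to -1.27 for Utp20 and -0.78 to -1.09 for Pwp2. The calls did not hold in most of these fits, each of which leaves 1 library in a group and weakens the test for every gene. The siNT libraries of set 1 enter this difference, and in all 4 members they stood below the siNT library of set 2. The part of that offset was not tested. No member's groups had enough libraries to look for single libraries that stand apart.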

How the results depend on the processing

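Of 219 recomputed values of single named members, 195 kept their direction and side of the threshold, 24 kept the direction but no longer passed, and 0 reversed. Counts of called members against siNT in set 1 stayed within 1.5 times of the reported 26, 34 and 29 under other pseudocounts, filters and scalings. Leaving out 1 library gave 2 to 22 members with siRpl14, 18 to 34 with siRpl11 and 10 to 29 with siRpl14+siRpl11. Median-ratio rescaling gave 11 members in siRpl11 against siRpl14 and 1 in siRpl14+siRpl11 against siRpl14, where 0 were reported, and quantile normalization gave 1 in siRpl11 against siRpl14. In set 3 every setting gave 0 members. Adding set 2 with the set as a covariate, chosen after seeing the data, gave 29 members with siRpl14 against siNT, 27 higher and 2 lower. The counts in this section stand without the share of all genes called under the same setting, so a change in them may not be particular to the members.

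With replicate number as a block the counts against siNT in set 1 were 20 with siRpl14, 29 with siRpl11 and 26 with siRpl14+siRpl11, and 0 in every other contrast. With only 2 numbers the libraries share a number and no stated source. Deviations of same-numbered libraries correlated at 0.18 for siRpl14 with siNT, 0.25 for siRpl11 with siNT and 0.50 for siRpl11 with siRpl14, but at -0.24, -0.49 and -0.50 for siRpl14+siRpl11 with siNT, siRpl14 and siRpl11. With the numbers of siRpl14+siRpl11 crossed, a fit added after seeing the data, the block gave 36 members against siNT, 4 against siRpl14 and 0 against siRpl11. Cuffnorm FPKM give no depth, 2 libraries per group limit every test, and the SE of set 3 is larger than most changes of set 1.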

Other observations

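Within each knockdown group of set 1, the library with less of the targeted RNA had the larger median change in these genes, although with siRpl14 the difference was close to that of all genes. This was noticed after the values were seen, rests on 3 pairs of libraries and was not tested. With siRpl14, replicate 2 (Rpl14 at 27.1% of siNT) stood above replicate 1 (60.2%) in 26 of 44 members (59.1%), against 54.8% of all genes, and the members' medians relative to siNT were 0.40 and 0.36. The median difference between these 2 libraries was 0.05 in the members and 0.03 in all genes. With siRpl11, replicate 2 (Rpl11 at 15.2%) stood above replicate 1 (34.9%) in 30 members, against 49.1% of all genes, with medians of 0.56 and 0.49. With siRpl14+siRpl11, replicate 1 (Rpl14 at 15.6%) stood above replicate 2 (35.3%) in 38 members, against 47.3% of all genes, with medians of 0.54 and 0.40. The 2 siNT libraries differed too: replicate 1 was above replicate 2 in 5 members, against 41.1% of all genes, with a median difference of -0.12. That is about the size of the 0.13 between the 2 siRpl14+siRpl11 libraries.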
